A study of Mus musculus with 10 samples.

Results

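Cells that lose water or take on salt keep their volume by gathering small organic molecules, the compatible osmolytes betaine, taurine, inositol and sorbitol, which raise the solute content without disturbing proteins. The transcription factor NFAT5 switches on the transporters and the enzyme that supply these osmolytes, and it does so through a DNA element called the tonicity-responsive enhancer. In swelling cells the movement runs the other way, and osmolytes and chloride leave through the volume-regulated anion channel built from LRRC8 subunits. Heart muscle is known for its high content of taurine.

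The 6 genes described here are Slc6a12, Slc6a6 and Slc5a3, which encode the transporters of betaine, taurine and inositol, Akr1b3, which encodes the sorbitol-making aldose reductase, Nfat5, and Lrrc8a, which encodes the indispensable subunit of the anion channel. The group was selected on measured values: the members were chosen by their knockout and wild-type signals on these same arrays, among them the low knockout signal of Slc6a12. Their values are therefore given as a description, without a test. Every probe carrying one of these gene names on the array was taken, which gave 15 of 56605 probes that are not controls. A probe was kept when 4 or more of the 5 arrays of either genotype read it well above background, a mark that the scanner software gives to each spot. Of the 15 probes 13 were kept, against 30693 of all probes, and each of the 6 genes had a kept probe.

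The samples were cardiac tissue of male mice on the C57BL/6 background, 5 labelled HIPK2 knockout and 5 labelled wild type, and each was hybridised to its own 1-colour Agilent array. HIPK2 is a nuclear kinase that acts on transcriptional regulators. The knockout line was made with CRISPR, which left a frameshift deletion in the second exon of Hipk2, and it was expanded by crossing to wild-type mice, so the deletion was not limited to the heart. Age was not given in the sources used here, nor was the chamber or the wall of the heart that was sampled, and no treatment was named for either genotype. The labels number the samples but do not say outright that each was a separate mouse, so the errors and tests here cover the spread from sample to sample, which may be partly technical.

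The published regulation of the transporters and of the aldose reductase in this group runs through the tonicity-responsive enhancer. The stretch in which its letters were found among the members is therefore shown first. RefSeq promoter windows, each from 250 bases before to 50 bases after a start site on build GRCm38.p6, were at hand for 4 of the 6 genes, Slc6a12, Slc5a3, Nfat5 and Lrrc8a. They made up 8 windows, 5 of them for Slc6a12. The published consensus of the enhancer, searched on both strands, was found in 1 of the 8, which was a window of Slc6a12. The 250 bases before that start site, chr6:121342324-121342573 on the plus strand, read as follows, with the match to the consensus in capitals.

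Slc6a12 upstream: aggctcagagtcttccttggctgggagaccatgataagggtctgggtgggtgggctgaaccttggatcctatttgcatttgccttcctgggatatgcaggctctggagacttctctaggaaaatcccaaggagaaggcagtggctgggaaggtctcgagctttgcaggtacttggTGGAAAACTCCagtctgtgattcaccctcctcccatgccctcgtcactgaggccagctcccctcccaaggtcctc

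The capitals end 64 bases before the annotated start site of Slc6a12 and begin with TGGAAA, the invariant core of the element. Of 32851 windows of 300 bases in the table, 4.96% held the consensus and 21.43% held TGGAAA on either strand. The match is a run of letters, and whether NFAT5 binds it in these hearts was not measured. The other 7 windows lacked the letters, which says nothing of enhancers elsewhere.

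Slc6a12, the betaine transporter, read lower in every knockout sample, on a spot too dim there for its level to be measured. Its single probe lies at 121315541 to 121315600 on chromosome 6, plus strand, of mouse build mm9, the build of all probe positions given here. No exon or intron annotation for mm9 was used. Levels are log2 of the background-subtracted spot signal relative to the 75th percentile of the signals on the same array, so that 0 is the level of that percentile. The wild-type samples 1 to 5 had Slc6a12 levels of -3.65, -3.88, -3.69, -3.27 and -3.21, and the knockout samples 1 to 5 had -6.30, -4.70, -5.23, -5.88 and -5.63. All 5 knockout samples lay below all 5 wild-type samples, and knockout sample 1 was the lowest of the 10. Knockout samples averaged -5.55 ± 0.61 and wild-type samples -3.54 ± 0.29 (SD, n = 5 each). The difference, knockout minus wild type, was -2.01 ± 0.27 (SE of the limma fit) on the log2 scale, with a 95% interval of -2.60 to -1.42. In bulk tissue, fewer cells of the type that makes a transcript and less of it per cell cannot be told apart.

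**Figure D1:**
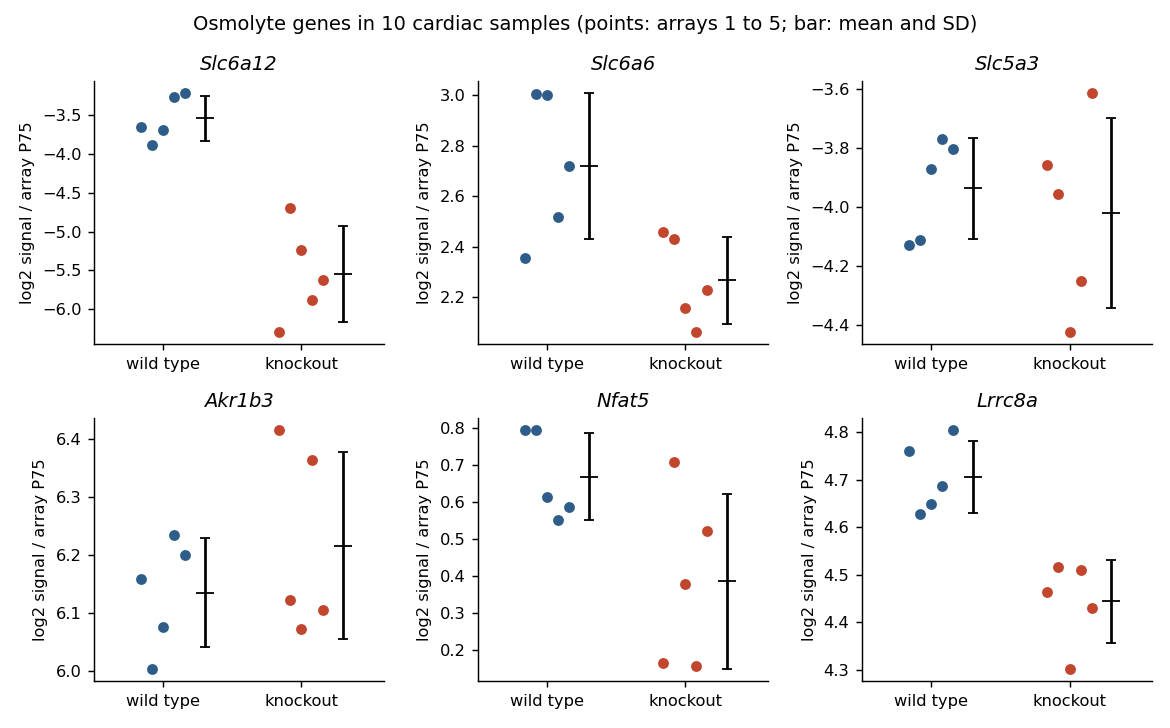
Log2 signal relative to the array's 75th percentile (P75) on the brightest kept probe of each gene, one panel per gene with its own vertical axis; points are samples 1 to 5 from left to right, and the black bars give the mean and SD of 5 samples. Knockout and wild-type points do not overlap for Slc6a12 and Lrrc8a, and they overlap for the other 4 genes.

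The size of this difference rests on very dim spots. The Slc6a12 spot was well above background on 5 of 5 wild-type arrays and on 0 of 5 knockout arrays. Before background subtraction, its mean intensity on wild-type arrays 1 to 5 was 73.4, 69.4, 68.2, 88.6 and 82.7 scanner units, and on knockout arrays 1 to 5 it was 35.2, 55.2, 43.7, 32.4 and 42.6. The background that the software subtracted was 30.9 to 34.1 units on the wild-type arrays and 30.2 to 37.4 on the knockout arrays. The unsubtracted readings thus separated the genotypes as well, and the readings of knockout arrays 1 and 4 stood closest to their background. After subtraction the wild-type arrays averaged 43.7 ± 9.75 units and the knockout arrays 8.93 ± 5.21 (SD, n = 5 each). On knockout arrays 3 and 4 the software had put in a substitute value in place of a signal too close to background to be used.

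**Figure D2:**
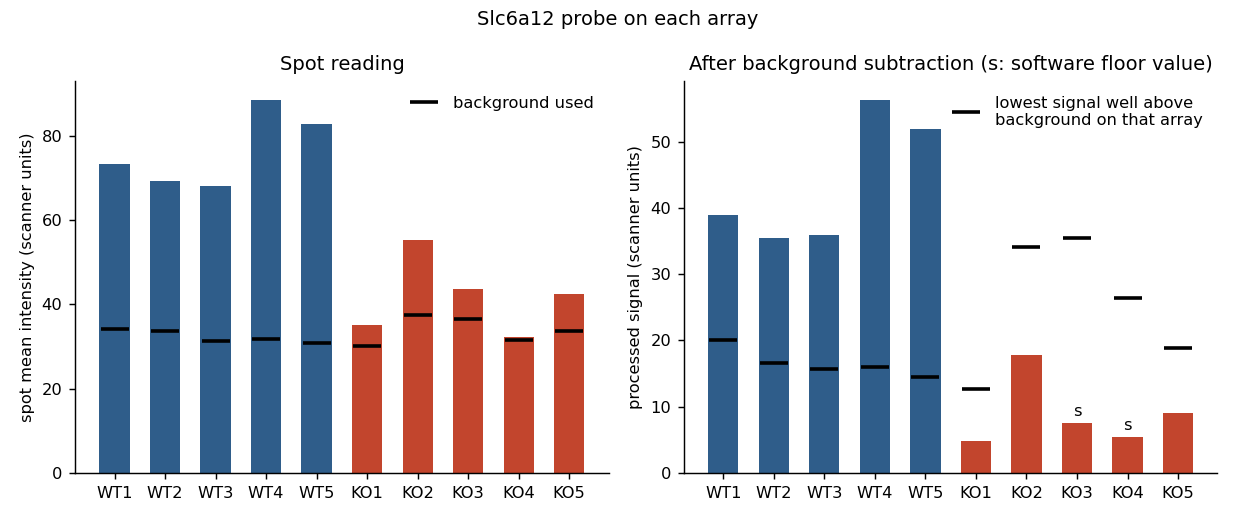
The Slc6a12 spot on each of the 10 arrays (WT, wild type; KO, knockout; numbers are the samples). Bars on the left are mean spot intensity with a dash at the background used, and bars on the right are the signal after subtraction with a dash at the lowest signal called well above background on that array; s marks the 2 substitute values. All 5 wild-type bars on the right rise above their dash and no knockout bar does.

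Since the knockout signals were not well above background, a more cautious fold was also computed. Each knockout array was given the higher of its own Slc6a12 signal and the lowest signal that the software called well above background on that array. By this measure Slc6a12 was 1.35-fold lower in knockout, against 4.02-fold by the fitted means. That value has no error and is not a strict lower bound, because a spot above the lowest called signal can still fail the call. On knockout array 5 an Nfat5 spot at 19.1 units was not called, although the lowest called signal there was 18.8. The lowest signal well above background ranged from 12.6 to 35.4 units over the knockout arrays and from 14.5 to 20.1 over the wild-type arrays. It lay above the wild-type range on knockout arrays 2, 3 and 4, inside it on array 5 and below it on array 1. The 1.35-fold value holds for the software's subtraction. Under normexp, a background correction that models signal and noise together, with an offset of 50 units added, the log2 difference was -0.25 ± 0.11 (interval -0.48 to -0.01), a 1.19-fold difference, and the 2 genotypes overlapped. An offset of 10 units gave -0.79 (interval -1.14 to -0.43). In total, 57 genes of the array were well above background on 5 wild-type and 0 knockout arrays, as Slc6a12 was, and 0 genes showed the opposite.

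The position of the arrays bears on this gene too. Slide 1 carried wild-type samples 1 and 2 in its second row of arrays, and slide 2 carried wild-type samples 3 to 5 with knockout sample 1 in row 1 and knockout samples 2 to 5 in row 2. Within row 1 of slide 2, the Slc6a12 level of knockout sample 1, -6.30, lay below the 3 wild-type values there, which ran from -3.69 to -3.21. Within the second rows, the 4 knockout values, from -5.88 to -4.70, lay below the 2 wild-type values, -3.65 and -3.88, although these came from different slides. Only row 1 of slide 2 held both genotypes, so a fit with slide and row as blocks compares knockout sample 1 alone with wild-type samples 3 to 5 for every gene. For Slc6a12 it restates the row 1 comparison as -2.91 (interval -3.82 to -1.99). Without the 4 arrays of row 1 of slide 2 the difference was -1.59 (interval -2.37 to -0.82). Leaving out single arrays gave -2.22 to -1.82, and within slide 2 alone the value was -2.16.

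**Figure D3:**
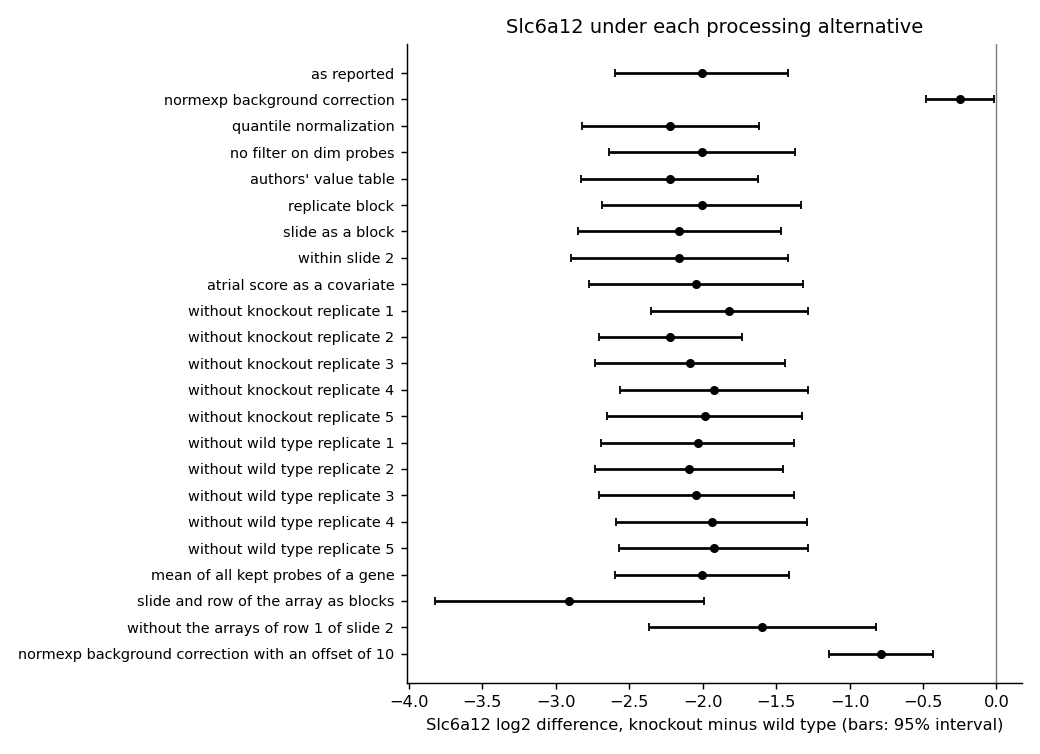
The Slc6a12 log2 difference, knockout minus wild type, with its 95% interval, as reported and under each other processing; each line changes one choice. Every value lies below 0, from -2.91 with slide and row as blocks, which sets knockout sample 1 alone against 3 wild-type samples, to -0.25 with normexp background correction and an offset of 50.

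Slc6a6, the taurine transporter, was measured by 2 kept probes and was bright on all 10 arrays. One of them, which the array file places at 91699793 to 91700295 on chromosome 6, spans 503 bases of genome with 60 bases of probe. It therefore crosses at least 1 intron and reads spliced transcript:

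Slc6a6 probe: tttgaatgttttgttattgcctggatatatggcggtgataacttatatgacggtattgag

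On this junction probe the knockout samples had a log2 level of -0.38 ± 0.31 and the wild-type samples 0.03 ± 0.29 (SD, n = 5 each), a difference of -0.41 ± 0.18 (interval -0.80 to -0.02). The brighter Slc6a6 probe, at 91708620 to 91708679, read 2.35, 3.00, 3.00, 2.52 and 2.72 in wild-type samples 1 to 5 and 2.46, 2.43, 2.16, 2.06 and 2.23 in knockout samples 1 to 5. Wild-type sample 1 fell within the knockout range, and the other 4 wild-type samples lay above every knockout sample. The difference was -0.45 ± 0.14 (interval -0.77 to -0.14), and under normexp with an offset of 50 it was -0.51 ± 0.14. Both Slc6a6 probes thus gave lower means in knockout by like amounts, a 1.37-fold and a 1.33-fold difference. The remaining Slc6a6 probe, at 91676778 to 91676837, was not well above background on any array and was left out.

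Slc5a3, the inositol transporter, showed no direction that outlived the choice of background correction. Both of its probes on chromosome 16 were well above background on 5 of 5 wild-type arrays and 2 of 5 knockout arrays. The probe at 92087281 to 92087340 had levels from -4.43 to -3.61 in knockout and from -4.13 to -3.77 in wild type, with a difference of -0.08 ± 0.15 (interval -0.42 to 0.25). The probe at 92079366 to 92079425 gave -0.11 ± 0.22 (interval -0.60 to 0.39). Knockout values surrounded the wild-type values on both. Under normexp with an offset of 50 both turned positive, to 0.26 ± 0.08 and 0.31 ± 0.10.

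Akr1b3, the aldose reductase that turns glucose into sorbitol, had overlapping groups on both of its probes, each well above background on all 10 arrays. At 34253930 to 34253982 on chromosome 6, minus strand, levels ran from 6.07 to 6.42 in knockout and from 6.00 to 6.24 in wild type. Knockout samples 1 and 4 were above every wild-type sample, and the other 3 knockout samples lay inside the wild-type range. The difference was 0.08 ± 0.09 (interval -0.13 to 0.29). The other Akr1b3 probe, at 34260573 to 34260632, gave 0.14 ± 0.10 (interval -0.08 to 0.35), and its knockout range of 3.04 to 3.45 covered most of the wild-type range of 3.02 to 3.28. The sign of so small a difference followed the scaling, since quantile normalization gave -0.03 and the authors' value table -0.04 for the first probe.

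Nfat5, the transcription factor that drives the transporter genes, was covered by 6 probes on chromosome 8, of which 5 were kept, and the 5 did not agree in direction. The brightest, at 109903094 to 109903153, read 0.79, 0.79, 0.61, 0.55 and 0.59 in wild-type samples 1 to 5 and 0.17, 0.71, 0.38, 0.16 and 0.52 in knockout samples 1 to 5. Knockout sample 2 lay within the wild-type range and the other 4 knockout samples lay below it. The difference was -0.28 ± 0.12 (interval -0.54 to -0.02), with -0.27 ± 0.11 under normexp. The probe at 109853148 to 109853207, also above background on all 10 arrays, gave -0.37 ± 0.13 (interval -0.65 to -0.09), and its groups did not overlap, although the highest knockout value, 0.01, stood close to the lowest wild-type value, 0.03.

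The remaining 3 Nfat5 probes were dim in knockout. The one at 109893395 to 109894320 spans 926 bases of genome with 60 bases of probe, so it too reads spliced transcript:

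Nfat5 probe: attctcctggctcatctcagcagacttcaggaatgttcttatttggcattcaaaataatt

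Under the software's subtraction it was the only kept Nfat5 probe with a higher knockout mean, by 0.20 ± 0.15 (interval -0.13 to 0.53), and was well above background on 3 of 5 knockout arrays. Its difference under normexp with an offset of 50 was 0.30 ± 0.11 (interval 0.07 to 0.53). The probe at 109851832 to 109851891 gave -0.17 ± 0.16 and the probe at 109882604 to 109882663 gave -0.57 ± 0.19, and under normexp with an offset of 50 both turned positive, to 0.16 ± 0.09 and 0.17 ± 0.11. The last of these was well above background on only 1 of 5 knockout arrays. The 2 bright Nfat5 probes therefore had lower knockout means under both corrections, while the direction of 2 of the 3 dim ones depended on the correction. The sixth probe, at 109886759 to 109886818, was above background on 0 arrays.

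**Figure D4:**
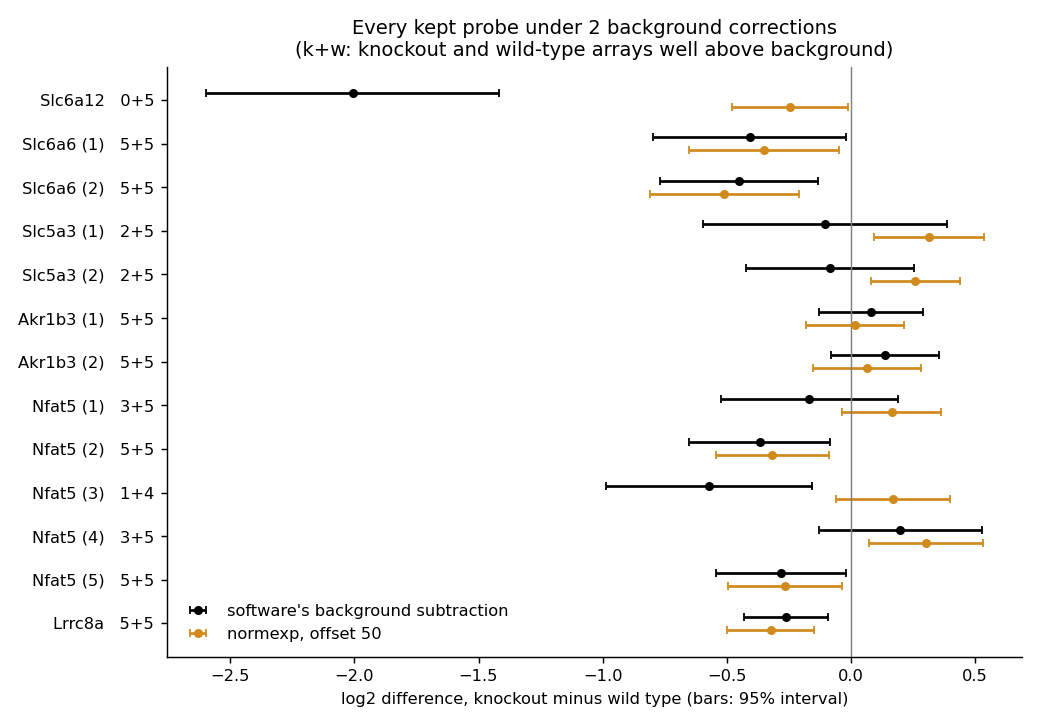
Log2 difference, knockout minus wild type, with its 95% interval for the 13 kept probes, numbered by genome position within a gene, under the software's background subtraction (black) and normexp with an offset of 50 (orange). Probes above background on all 10 arrays differ little between the corrections, whereas Slc6a12 moves from -2.01 to -0.25 and 4 dim probes, both of Slc5a3 and 2 of Nfat5, change sign.

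Lrrc8a, the subunit without which the volume-regulated anion channel does not conduct, was measured by 1 bright probe at 30119177 to 30119236 on chromosome 2. Wild-type samples 1 to 5 read 4.76, 4.63, 4.65, 4.69 and 4.81, and knockout samples 1 to 5 read 4.46, 4.52, 4.30, 4.51 and 4.43. All knockout samples lay below all wild-type samples, and the spread was narrow, with an SD of 0.09 in knockout and 0.08 in wild type. The difference was -0.26 ± 0.08 (interval -0.43 to -0.09), a 1.20-fold difference. Within row 1 of slide 2, knockout sample 1 at 4.46 was below the 3 wild-type samples there. Over the array left out in turn the value ran from -0.28 to -0.23, and over the other processing alternatives from -0.32 to -0.25. Without the arrays of row 1 of slide 2 it was -0.25, with a wider interval of -0.55 to 0.04. With slide and row as blocks, a fit that rests on knockout sample 1, it was -0.25.

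The shares over the whole array are given beside the counts of the 6 genes. At an adjusted p under 0.05 in limma, 4.94% of the 20607 genes measured were called, 2.97% lower and 1.97% higher in knockout, and of the 6 genes 1, Slc6a12, was called. The groups did not overlap for 8.98% of all genes and for 2 of the 6, Slc6a12 and Lrrc8a. Because the group was picked with this contrast in view, neither count is read as a result.

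Other genes of osmotic balance, taken from lists of 66 genes that leave the 6 out, were tested in the same fit with p-values adjusted over all genes. These lists were also chosen with earlier results of these data known, so the share called is given as a description. Of the 66 genes, 58 were measured above the filter: 2 rose in knockout, 3 fell and 53 did not pass, so that 8.62% were called against the 4.94% of all genes. Their median log2 difference was -0.05 against 0.03 for all genes, and 30 of the 58 were below 0. Map2k6, Miox, Lrrc8c, Sgk1 and S100a4 were the genes called. The genotypes did not overlap in 8 of the 58 genes, these 5 among them, against 8.98% of all genes. The calls and the separation rest on the same values.

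Map2k6, a kinase that activates p38, which in turn is known to act on NFAT5, rose. Its levels were -0.83, -0.57, -0.49, -0.71 and -0.59 in knockout samples 1 to 5 and -1.76, -1.45, -1.27, -1.48 and -1.47 in wild-type samples 1 to 5. Every knockout sample was above every wild-type sample, and the difference was 0.85 ± 0.10 (limma adjusted p = 0.00625). Its call survived the omission of any single array, in 10 fits, and 10 of 11 other alternatives. The exception was slide and row as blocks, where knockout sample 1 stands alone against wild-type samples 3 to 5 and the difference was 0.58 (adjusted p = 0.221). In the list of 10 kinases and partners of NFAT5 that holds Map2k6, the other 9 did not pass and the median was 0.13. Among them Mapk14, the p38 kinase itself, gave 0.09 ± 0.11, with 0.45 ± 0.16 on its dimmer probe. Map2k3, the sister kinase of Map2k6, gave 0.21 ± 0.09, with 0.15 and -0.07 on its dimmer probes. The kinase gene Prkaca gave 0.26 ± 0.10, with 0.46 ± 0.10 on its dimmer probe, and was called when all kept probes of a gene were averaged. The dimmer probes of Akap13 (-0.29, -0.10 and 0.16) and of Ddx5 (-0.15 and 0.18) differed in sign within each gene.

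Of the partners of Lrrc8a in the anion channel, Lrrc8c was the one that passed. Lrrc8c fell, from wild-type levels of -1.53 to -1.14 to knockout levels of -2.06 to -1.64, by 0.55 on the log2 scale (SE 0.11, limma adjusted p = 0.0239). The values of Lrrc8b (-0.29 ± 0.25), Lrrc8d (-0.20 ± 0.11) and Lrrc8e (-0.30 ± 0.36), each on its brightest probe, did not pass. The dimmer probe of Lrrc8b gave -0.66 ± 0.12, with no overlap of the genotypes, and that of Lrrc8d gave -0.82 ± 0.19. These dimmer probes were well above background on 3 and 2 of 5 knockout arrays, so which partners differed depended on the probe. The list median was -0.29, with 4 of 4 genes below 0 and 1 called. Under normexp with an offset of 50 only Lrrc8c (-0.28) and Lrrc8d (-0.22) stayed below 0, while Lrrc8b (0.08) and Lrrc8e (0.16), dimmer on the knockout arrays, turned positive. The Lrrc8c call was lost without knockout sample 2 and without wild-type samples 2, 4 or 5 (adjusted p up to 0.0605). It was also lost in 6 of 11 other alternatives, among them within slide 2, where the difference was -0.53, and with the atrial score, a mean of atrial marker levels, as a covariate, where it was -0.48.

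Of 6 further genes known to be induced by hypertonic stress, all 6 had lower means in knockout, with a median of -0.42, and 2 fell. Sgk1, a kinase that regulates sodium transport, went from 3.75 to 4.10 in wild type to 3.42 to 3.63 in knockout, a difference of -0.38 ± 0.09 (limma adjusted p = 0.0396). S100a4, a calcium-binding protein that is also abundant in fibroblasts and macrophages, went from 2.21 to 2.66 in wild type to 1.61 to 2.16 in knockout, a difference of -0.57 ± 0.13 (limma adjusted p = 0.0379). Both calls stood close to the threshold. With single arrays omitted, Sgk1 passed in 2 of 10 fits, those without wild-type samples 1 or 3 (adjusted p up to 0.0927), and S100a4 in 2, those without knockout sample 5 or wild-type sample 1 (up to 0.0837). Of 11 other alternatives Sgk1 lost its call in 9 and S100a4 in 7. Within slide 2 the differences were -0.37 and -0.55, and with the atrial covariate -0.32 and -0.47. The fibroblast markers, 4 of 4 measured, had mean levels of 2.54 to 3.42 in knockout and 3.05 to 3.43 in wild type, and the macrophage markers, 9 of 9, had 1.43 to 1.97 and 1.94 to 2.21. The part of either in the S100a4 value was not tested. The chaperone genes Hspa1a (-0.80 ± 0.28) and Hspa1b (-0.46 ± 0.31), near-identical copies whose probes may read both, did not pass, although Hspa1a did under normexp with an offset of 50 (limma adjusted p = 0.0451), and neither did Hspa4l and the amino acid transporter Slc38a2.

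Miox, which encodes the enzyme that breaks down inositol, rose. Its knockout levels ran from -3.90 to -3.02 and its wild-type levels from -4.85 to -4.05, a difference of 0.78 ± 0.19 (limma adjusted p = 0.0470). The probe was dim, above background on 2 of 5 knockout and 4 of 5 wild-type arrays, and the difference was 0.52 under normexp with an offset of 50. With single arrays omitted it passed in 1 of 10 fits, the one without wild-type sample 3 (adjusted p up to 0.105), and it was lost in 6 of 11 other alternatives, within slide 2 among them, where the difference was 0.55. The other 4 measured inositol genes, the transporter Slc2a13, the synthase Isyna1 and the phosphatases Impa1 and Impa2, did not pass and lay between -0.13 and 0.10.

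In 6 lists no gene passed, and the 2 genes of smallest p in each give the scale of the differences. Among relatives of the betaine and taurine transporters, the GABA transporter Slc6a13 gave 0.20 ± 0.23. The creatine transporter Slc6a8 gave -0.13 ± 0.17 on its brightest probe and -0.42 ± 0.13 on the other. Slc6a13 lies at 121287597 to 121287656 on chromosome 6, close to the Slc6a12 probe, and its knockout mean was not lower. In sorbitol metabolism Akr1b10 gave 0.25 ± 0.11 on its brightest probe, with -0.20 ± 0.15 and -0.50 ± 0.11 on the other two, and Akr1b8 -0.09 ± 0.11, and in taurine synthesis Ado, which oxidises cysteamine, gave -0.22 ± 0.12 and Csad, the decarboxylase, 0.16 ± 0.12.

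Among genes of betaine, choline and glycerophosphocholine, the choline transporters Slc44a2 (0.31 ± 0.09, limma adjusted p = 0.0737) and Slc44a1 (-0.19 ± 0.08) differed in sign, and the other probes of Slc44a1 gave 0.32, 0.39 and -0.23. Among ion transporters of volume regulation and their kinases, the sodium-potassium-chloride cotransporter Slc12a2 gave -0.28 ± 0.09 (adjusted p = 0.0799) and the kinase Wnk1, a sensor of chloride and crowding, -0.19 ± 0.07 (adjusted p = 0.108), while among water and mechanical channels Aqp11 gave 0.35 ± 0.12 (adjusted p = 0.0979) and Aqp8 -0.92 ± 0.40 (adjusted p = 0.172). Each of Slc12a2, Wnk1, Aqp11 and Aqp8 was called under some alternatives. Wnk1 was called under normexp with an offset of 50, under quantile normalization and in the authors' value table, Aqp8 within slide 2 and with slide as a block. Slc12a2 was called under normexp with an offset of 50 and without knockout sample 5, and Aqp11 under normexp with either offset and without knockout sample 3. Pnpla6, a phospholipase that makes glycerophosphocholine, is named after its values were seen, since its 1.54 ± 0.66 was the largest difference of the 58. That value came from knockout samples 1 and 3, at -1.58 and 0.76, while the other 3 knockout samples lay between -3.21 and -3.03 (limma adjusted p = 0.166).

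**Figure D5:**
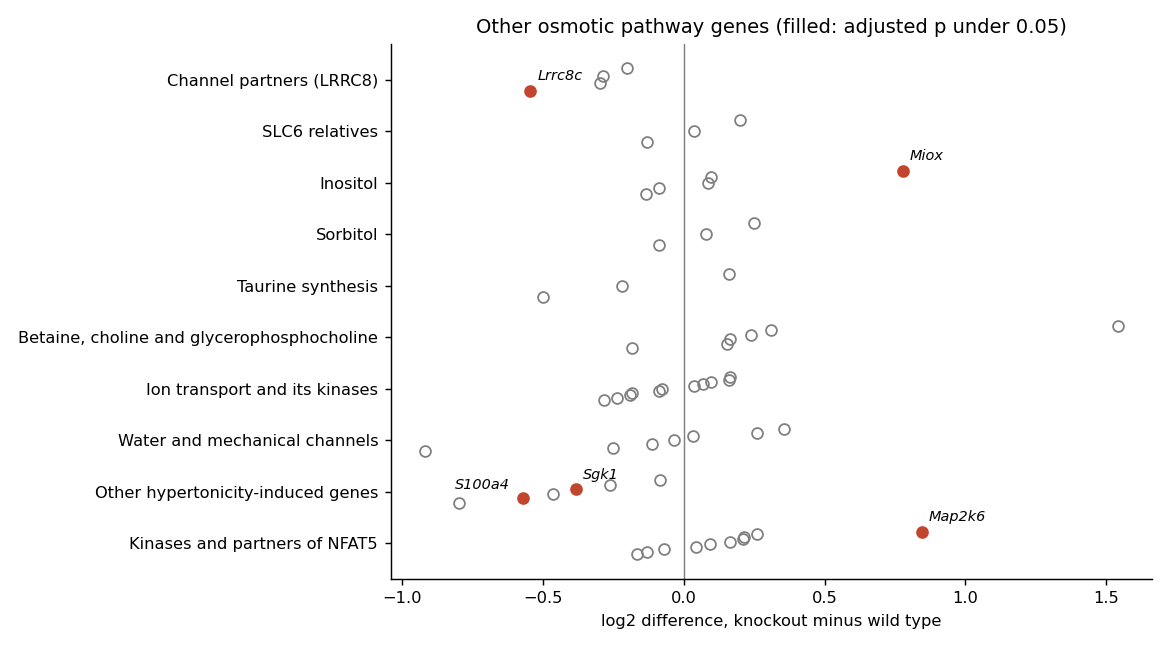
Log2 difference, knockout minus wild type, for the 58 measured genes of the 10 osmotic pathway lists, one point per gene; filled points passed limma at an adjusted p under 0.05. The 4 channel partners and the 6 hypertonicity-induced genes all lie below 0 under the software's background subtraction, which for Lrrc8b and Lrrc8e does not hold under normexp, and the point at 1.54 is Pnpla6.

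The genes whose levels followed each member most closely over the 10 arrays were taken by the highest Pearson r, and much of a high r can come from the genotype difference alone. For Slc6a12 they were Mcc (0.965), Pla1a (0.959) and the chemokine Ccl7 (0.958), with r of 0.765, 0.707 and 0.686 once each genotype's mean was removed. For Lrrc8a they were the angiotensin precursor gene Agt (0.959), Lpgat1 (0.949) and Abhd6 (0.944), and within genotypes 0.823, 0.762 and 0.836. For Nfat5 they were Ajuba (0.945), Daam2 (0.945) and Shank3 (0.943), with 0.906, 0.922 and 0.918 within genotypes. For Slc6a6 they were the ubiquitin ligase Cbl (0.946), Lrrc4c (0.944) and Zmiz1 (0.930), with 0.897, 0.880 and 0.851 within genotypes. Akr1b3 was followed by Btf3 (0.970), Pam16 (0.965) and Atpaf1 (0.964), and Slc5a3 by Smpd3 (0.893), Rsu1 (0.890) and Zbtb6 (0.888), with nearly the same r within genotypes. The levels share their arrays and the scaling of each array, and these are descriptions of 10 arrays without a test.

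Several features of the tissue and the arrays differed between the genotypes in the same samples. The array's 75th percentile of signal was 286 to 460.5 units in knockout and 462 to 542 in wild type, and 45.8% to 58.3% of spots against 55.7% to 60.4% were well above background. The cardiomyocyte markers, 7 of 7 measured, had a mean log2 level of 8.11 to 8.50 in knockout and 7.67 to 8.14 in wild type. The endothelial markers, 5 of 5, ran from 2.33 to 2.58 against 2.72 to 2.86. The two-sided exact permutation p, adjusted over 11 marker lists, was 0.0437 for the cardiomyocyte, endothelial and macrophage lists alike and for Wt1, the 1 measured of 4 mesothelial markers. It was 0.0873 for the fat markers, 4 of 6 measured, at -5.04 to -2.96 against -4.17 to 0.29. The atrial markers, 3 of 3, ran from -2.75 to 1.56 against -3.02 to 4.81. Of kidney and liver, organs rich in Slc6a12, the markers Umod, Slc12a1, Alb and Apoa1 did not pass the background filter. Aqp2 and Slc34a1 of kidney and Serpina1b of liver were well above background on all 10 arrays. Ttr of liver was so on 2 of 5 knockout and 5 of 5 wild-type arrays. The mean over the 2 measured kidney markers was -2.92 to -2.03 in knockout and -2.94 to -2.45 in wild type. For the 2 measured liver markers it was -3.48 to -2.51 in knockout and -3.095 to -2.59 in wild type. The part of cell makeup and signal depth in the values above was not tested. The 3 Hipk2 probes were above background on all 10 arrays and differed by 0.04, -0.01 and 0.11, so the transcript did not check the genotype labels.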

How the data were processed

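RNA from 10 cardiac samples was read on 1-colour arrays. The authors deposited the linear intensity of every spot. The submitters' processing notes name Agilent Feature Extraction 10.7.1.1, and the processed intensity had been corrected by it for background and for trends across the array, per the file headers, with no scaling between arrays. The authors also deposited a value table on the log2 scale, whose columns matched their own arrays (r of 0.923 to 0.997 across genes, each gene's mean removed) and shared a median of 4.74; its background treatment was not given in the sources used here.

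Of 59305 spots that were not controls, outliers were left out and spots of a probe averaged. Log2 of the processed signal was taken relative to each array's 75th percentile. A probe was kept if 4 or more of the 5 arrays of either genotype read it well above background, and the brightest kept probe stood for a gene (20607 genes). RefSeq accessions named 32994 probes, and 23611 kept the name on the array. Groups were compared with limma 3.58.1 (R 4.3.3), two-sided, with Benjamini-Hochberg adjustment over genes and a threshold of 0.05; the script was tested on simulated data. No spot was saturated. The number of arrays limits the precision.

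The members and gene lists were chosen with earlier results of these data known. Genes named were all member probes, every listed gene past the threshold, the 2 of smallest p in lists without one, and the 3 most alike in pattern to each member. Replicate numbers did not pair the samples: deviations of same-numbered samples correlated at -0.106 to 0.0495. Alternatives were other background corrections, scaling, filters, blocks, an atrial covariate and leaving out arrays; the slide and row blocks, the fit without row 1 of slide 2 and the offset of 10 were added after seeing the data.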

Additional observations from a re-analysis of the deposited data

Results flagged for a closer look

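Among 32 groups of 5 values examined for a sample far from the rest, over the member probes and Hipk2, 1 held such a sample, where chance gives about 1 in 20. On the dim Nfat5 probe at 109882604 to 109882663, wild-type sample 3 had a level of -4.81, while the nearest of the other 4 wild-type samples was at -4.01. The gap made up 0.968 of the range of the group.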

How the results depend on the processing

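The counts of calls moved with the processing, and apart from fits on fewer arrays the cause was not tested. Against 1017 genes called, 3111 were called with normexp and an offset of 50, 1616 with an offset of 10, 173 without the filter, 458 within slide 2, 57 with the atrial score as a covariate, 352 without row 1 of slide 2 and 0 in limma with slide and row as blocks (2788 at an unadjusted p under 0.05), a fit that rests on knockout sample 1 against 3 wild-type samples; leaving out 1 array gave 282 to 940. Rises were 39.8% of calls, 71.8% with normexp, 62.2% with the offset of 10, 53.2% without the filter and 82.4% without row 1 of slide 2. Without the filter the median difference of all genes was 0.24, a shift of all genes to read against.

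Against 5 pathway genes called, the number was 9 with normexp, 1 without the filter, 3 with slide as a block, 2 within slide 2, 1 with the atrial score, 1 without row 1 of slide 2 and 0 with slide and row as blocks, and 1 to 4 with an array left out. Against 1 member called, Slc6a12, the number was 2 with normexp, Slc6a6 and Lrrc8a, so Slc6a12 lost its call there. The number was also 2 with quantile normalization, the authors' table or the offset of 10, which kept Slc6a12 and added Lrrc8a. It was 0 without row 1 of slide 2, and 1, Slc6a12, with each array left out. Over all genes, 1292 were called with quantile normalization and 1297 with the authors' table. Because the members were picked with this contrast in view, the member counts are not read as results. With the replicate block 164 genes and 2 pathway genes were called; the numbers do not pair the samples.

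Slc6a12, Slc6a6, Nfat5 and Lrrc8a had differences below 0 in all 22 alternatives. Slc5a3 was above 0 in 1 of 10 fits without an array and 3 of 12 others, and Akr1b3 was below 0 in 2 of the 12 others. Signal near background limits Slc6a12, Slc5a3 and 3 Nfat5 probes.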
